A study of Homo sapiens with 16 samples.

Results

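The genes described here are 34 genes of glycolysis and of the response to low oxygen, chosen by symbol from a list: glycolytic isoenzymes, glucose and lactate transporters, and targets and regulators of the hypoxia-inducible factors (HIF). All 34 symbols were found among the 23230 genes of the count tables. They comprise 16 glycolytic enzymes, 2 glucose transporters, 2 lactate transporters, 3 regulatory kinases, 3 genes of oxygen sensing (HIF1A, EGLN1 and EGLN3) and 8 other HIF targets. The data are mRNA sequencing of 8 established human lines, of blood cancers and, for P493-6, of a Burkitt's lymphoma model. Each was treated with the peptide Y518R, which binds DPY30, or with the peptide 3R, which does not. The labels give 2.5% serum. Peptide dose and exposure time were not in the sources used. DPY30 is a subunit shared by the complexes that methylate lysine 4 of histone H3. Of the lines, 4 carry an MLL fusion according to their labels: MOLM13 and THP1 (MLL-AF9), RS4-11 (MLL-AF4) and KOPN8 (MLL-ENL). The 4 other lines are RAJI, from a Burkitt's lymphoma, K562, a leukemia with BCR-ABL, P493-6, labelled as a Burkitt's lymphoma model, and JURKAT, labelled as a Myc-dependent leukemia of T cells. Each line had 1 library per peptide, so every library comes from peptide-treated cells, and a line's clonal history, lineage and fusion cannot be told apart within 1 line.

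Glycolysis splits glucose into pyruvate, and lactate dehydrogenase turns pyruvate into lactate, which leaves the cell through monocarboxylate transporters. HIF1A, with its partner ARNT, binds a short DNA core in many of these genes. When oxygen is present, the prolyl hydroxylases of the EGLN family mark HIF1A for VHL-dependent breakdown. HIF1A activity is therefore set largely at the protein level, which mRNA does not show. Many glycolytic steps are catalysed by isoenzymes from separate genes that differ between tissues, such as the hexokinases HK1 and HK2, and MYC is also known to raise glycolytic genes in blood cancers.

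Libraries held 19354300 to 43003124 gene counts, the range of depth behind all values, so a count of 0 allows up to 3 counts, or 0.0698 to 0.155 CPM, the unit of counts relative to the size of the library, with TMM factors for all levels. Reads given to no gene were 17.7% to 26.9% of reads in 15 libraries. That of RAJI with 3R was at 44.7%, and its part in the RAJI values was not tested. Markers matched the lineages of the lines, which were taken largely from general knowledge and not from the labels. The 6 B cell markers summed to 1221 to 2975 CPM in RS4-11, KOPN8, RAJI and P493-6 and to 3.67 to 21.4 CPM elsewhere. T cell markers summed to 1702 and 1829 CPM in JURKAT against at most 121.7 CPM in any other line, monocytic markers to 704 to 949.6 CPM in MOLM13 and THP1 against at most 55.3 CPM, and erythroid markers to 1121 and 1138 CPM in K562 against at most 376.7 CPM (JURKAT).

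The promoters of 5 genes are printed as a description, and no link between a core and a level or ratio was tested. Of the members with a RefSeq promoter and at 10 CPM or more, ENO2, ALDOC and PFKFB4 differed most between the peptides of the RAJI pair. LDHA and LDHB are an isoenzyme pair with and without the core in this window. Each line gives the 250 bases before the transcription start, from RefSeq on GRCh38.p14, read 5′ to 3′ on the strand of the gene. Capitals mark the HIF core ACGTG or GCGTG on either strand, so CACGT and CACGC are capitalised for the reverse strand, and the palindrome CACGTG counts once on each strand.
ENO2, chr12:6914330-6914579, plus strand: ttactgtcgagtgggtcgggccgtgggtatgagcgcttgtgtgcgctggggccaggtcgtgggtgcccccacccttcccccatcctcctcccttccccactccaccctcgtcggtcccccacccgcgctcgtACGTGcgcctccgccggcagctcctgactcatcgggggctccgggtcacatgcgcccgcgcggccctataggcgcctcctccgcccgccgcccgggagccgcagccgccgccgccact
ALDOC, chr17:28576896-28577145, minus strand: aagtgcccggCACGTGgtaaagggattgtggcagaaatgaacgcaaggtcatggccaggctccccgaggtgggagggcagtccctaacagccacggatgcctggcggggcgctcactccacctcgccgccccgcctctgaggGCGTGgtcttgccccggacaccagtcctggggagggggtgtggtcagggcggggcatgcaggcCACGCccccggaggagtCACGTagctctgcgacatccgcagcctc
PFKFB4, chr3:48556804-48557053, minus strand: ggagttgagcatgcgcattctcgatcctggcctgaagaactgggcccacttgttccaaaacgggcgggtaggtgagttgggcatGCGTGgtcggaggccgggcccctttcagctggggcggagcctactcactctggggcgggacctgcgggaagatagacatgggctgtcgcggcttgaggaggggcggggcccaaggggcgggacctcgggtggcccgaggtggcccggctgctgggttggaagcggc
LDHA, chr11:18394313-18394562, plus strand: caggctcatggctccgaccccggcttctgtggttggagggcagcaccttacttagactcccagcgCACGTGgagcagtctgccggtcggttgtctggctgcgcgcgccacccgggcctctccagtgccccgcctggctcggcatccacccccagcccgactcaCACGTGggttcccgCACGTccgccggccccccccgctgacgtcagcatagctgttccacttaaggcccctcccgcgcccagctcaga
LDHB, chr12:21657843-21658092, minus strand: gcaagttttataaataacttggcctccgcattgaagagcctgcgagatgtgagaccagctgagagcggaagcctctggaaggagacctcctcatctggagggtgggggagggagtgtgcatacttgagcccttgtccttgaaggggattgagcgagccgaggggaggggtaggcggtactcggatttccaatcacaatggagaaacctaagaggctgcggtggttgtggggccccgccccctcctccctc
By this count ENO2 and PFKFB4 had 1 core, ALDOC and LDHA had 5 each, and LDHB had 0. Promoters were matched for 29 of the 34 members, with 56 windows because some genes have several starts. A core stood in 33 of the 56 windows (58.9%), against 43.2% of the 35116 windows of all genes. It stood in at least 1 window of 25 of the 29 members (86.2%), against 47.4% of 27305 genes, but the 29 members had more windows per gene than the rest. A match is a description of letters in the window and does not show binding.

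All levels are in CPM, given for 3R and then Y518R where 2 values stand together. In bulk RNA, fewer cells with a transcript and less of it per cell cannot be told apart. Across the 34 members, 22 were at 10 CPM or more in all 16 libraries, and 2, the ankyrin repeat gene ANKRD37 and the carbonic anhydrase CA9, were at 10 CPM in none. Scaled by exon length, the highest medians over lines were those of GAPDH (1320 CPM per kilobase), ENO1 (1023), LDHB (879.8), ALDOA (589), LDHA (329) and TPI1 (182). Between the highest and the lowest line mean, 10 members were under 4-fold apart: the enzymes GPI, PFKP, ALDOA, PGK1, ENO1, LDHA and LDHB, the lactate transporter SLC16A1, and PFKFB3 and P4HA1. Another 11 were at least 8-fold apart with 4 counts or more in each library, and these were the isoenzymes HK1, PFKM, ALDOC and ENO2, the transporters SLC2A3 and SLC16A3, the kinases PDK1 and PFKFB4, and EGLN1, BNIP3 and VEGFA.

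**Figure D1:**
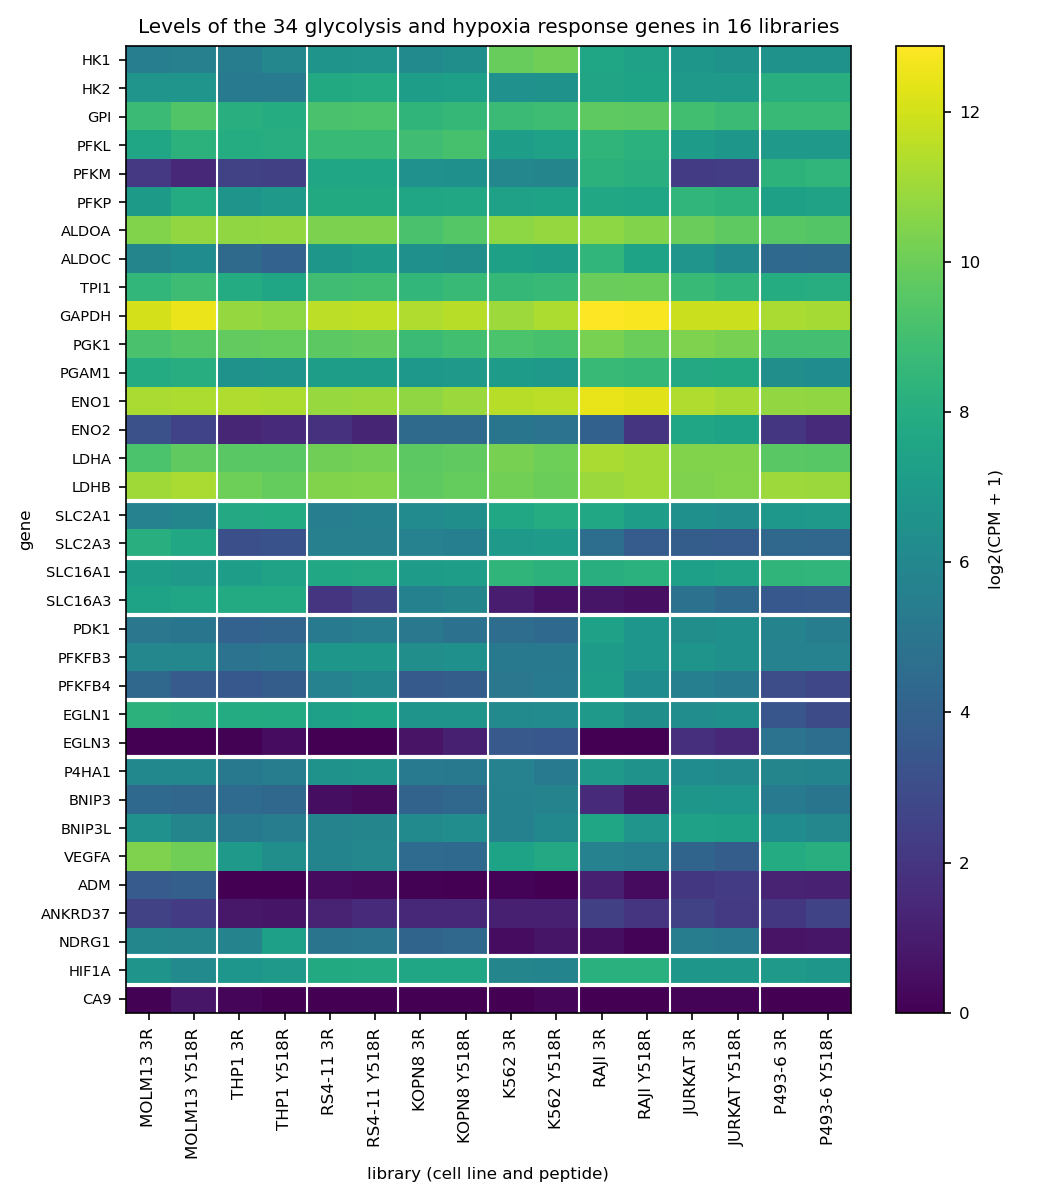
Heatmap of log2(CPM + 1) for the 34 genes (rows) in the 16 libraries (columns, by line and peptide). Rows run in the order enzymes, transporters, regulatory kinases, EGLN1 and EGLN3, and HIF targets, with HIF1A between NDRG1 and CA9 at the end. The 2 libraries of a line resemble each other, GAPDH and ENO1 are the brightest rows, and CA9 and ANKRD37 are dark throughout.

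The first step of glycolysis, phosphorylation of glucose, was carried by different hexokinase genes in different lines. HK1, the broadly expressed form, was at 941 and 1077 CPM in K562 and at 44.2 and 47.8 CPM in MOLM13, the lowest line. HK1 in the other lines was at 42.1 and 61.7 in THP1, 69.9 and 83.5 in KOPN8, 98.2 and 93.3 in P493-6, 99.1 and 103 in RS4-11, 110.3 and 97.1 in JURKAT and 186 and 166 in RAJI. K562 therefore stood 21.9-fold above MOLM13, and no library of another line reached its level. HK2, the inducible form and a HIF target, had another order, with 280.1 and 277 in P493-6, 224 and 244 in RS4-11, 182 and 176 in RAJI, 143 and 152 in KOPN8, 118 and 124 in JURKAT, 105 and 104 in MOLM13, 89.4 and 96.7 in K562 and 39.5 and 37.4 in THP1. P493-6 led it and THP1 was lowest. The libraries of KOPN8, JURKAT, MOLM13 and K562 lay between 89.4 and 152 CPM, in that order and without overlap between lines. The share of HK2 among HK1 and HK2 counts was 74.0% and 74.8% in P493-6, 70.3% and 68.6% in MOLM13, 69.3% and 70.3% in RS4-11 and 67.2% and 64.5% in KOPN8. It was 51.7% and 56.2% in JURKAT, 49.4% and 51.4% in RAJI, 48.5% and 37.8% in THP1 and only 8.68% and 8.23% in K562. Shares are of counts and are not corrected for transcript length.

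Phosphofructokinase, the committed step, was carried by different isoenzymes in different lines. PFKM, the muscle form, was at 322 and 350.2 CPM in P493-6, 306 and 271 in RAJI, 198 and 194 in RS4-11, 90.5 and 87.3 in KOPN8 and 60.5 and 57.2 in K562. It was at 3.38 and 1.74 CPM in MOLM13, 4.79 and 4.35 in THP1 and 3.92 and 4.01 in JURKAT, so the monocytic lines and the T cell line were separated from the other 5 lines by a gap with no overlap. PFKM made up 53.4% and 54.0% of the counts of the 3 forms in P493-6 and 0.790% and 0.927% in JURKAT. PFKP, the platelet form, made up 71.7% and 73.5% in JURKAT, 44.3% and 44.5% in K562 and 40.3% and 43.6% in MOLM13, and 23.8% to 30.9% in the libraries of the other 5 lines. In CPM, PFKP was at 356 and 318 in JURKAT, 223 and 227 in RS4-11, 208 and 191 in RAJI, 194 and 202 in KOPN8, 131 and 240.2 in MOLM13, 165 and 178 in K562, 157 and 172 in P493-6 and 100.4 and 118 in THP1. PFKL, the liver form, was at 485 and 562.2 in KOPN8, 419.9 and 407 in RS4-11, 339 and 295 in RAJI, 255 and 261 in THP1, 189.7 and 309 in MOLM13, 147 and 165 in K562, 124 and 126 in P493-6 and 136 and 110.4 in JURKAT. JURKAT was thus highest for PFKP. For PFKL its line mean was lowest, at 123.4 CPM against 124.7 CPM in P493-6, but the libraries of these lines overlapped. MOLM13 overlapped most other lines for PFKP because its libraries were far apart.

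The next enzymes had 1 dominant gene in every line. ALDOA, the main aldolase, was at 1651 and 1847 in K562, 1709 and 1756 in THP1, 1405 and 1791 in MOLM13, 1661 and 1386 in RAJI, 1312 and 1311 in RS4-11, 971 and 819 in JURKAT, 742 and 697 in P493-6 and 585 and 712 in KOPN8. RAJI overlapped with K562 and MOLM13, RS4-11 lay below the 4 highest lines, and P493-6 overlapped with KOPN8 at the low end. ALDOC, a form best known from brain, was at 359 and 178 in RAJI, 160.0 and 145 in K562, 114 and 135 in RS4-11, 103 and 72.0 in JURKAT, 86.8 and 82.6 in KOPN8, 56.2 and 77.1 in MOLM13, 19.8 and 20.9 in P493-6 and 21.2 and 15.6 in THP1, and made up 0.882% to 17.8% of aldolase counts. ENO1 was at 5592 and 5069.8 in RAJI, 2858 and 3093 in K562, 2563 and 2470.1 in THP1, 2446 and 2551 in MOLM13, 2572 and 2272 in JURKAT, 1921 and 1974 in RS4-11, 1714 and 1962 in KOPN8 and 1766 and 1682 in P493-6, with RAJI above all other lines and the rest within 1682 to 3093 CPM. ENO2, the neuronal enolase, was at 189.9 and 179 CPM in JURKAT and 6.87% and 7.29% of enolase counts there. The next ENO2 levels were 31.2 and 28.9 CPM in K562, 20.6 and 21.1 in KOPN8 and 15.1 and 2.87 in RAJI, followed by 8.31 and 5.13 in MOLM13, 3.13 and 1.90 in P493-6, 2.62 and 1.55 in RS4-11 and 1.64 and 1.96 in THP1. The libraries of P493-6, RS4-11 and THP1 lay between 1.55 and 3.13 CPM, with both MOLM13 libraries above them. RAJI stood among the middle lines with 3R and among the lowest with Y518R. JURKAT stood 102-fold above THP1.

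GPI, TPI1, GAPDH, PGK1 and PGAM1, which carry single steps of the pathway, differed by 2.70-fold (PGK1) to 5.20-fold (PGAM1) between the extreme lines. RAJI had the highest line mean for 4 of these 5 genes, with GAPDH at 7533 and 6808 CPM, GPI at 828 and 797, TPI1 at 967 and 1012 and PGAM1 at 430.4 and 379. PGK1 was highest in JURKAT at 1324 and 1226 CPM. THP1 was lowest for GAPDH (1827 and 1665 CPM), GPI (268 and 249) and TPI1 (243 and 199). GAPDH, TPI1, PGK1, PGAM1, ENO1, ALDOA, LDHA and LDHB have processed pseudogenes with near-identical sequence, so reads could have been split between copies and their levels carry that uncertainty.

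Lactate dehydrogenase joins LDHA subunits, which favour lactate, and LDHB subunits. LDHA was at 2453 and 2168 in RAJI, 1391 and 1386 in JURKAT, 1098 and 1185 in RS4-11, 1197 and 1052 in K562, 791 and 865 in KOPN8, 773 and 764 in THP1, 779 and 749.7 in P493-6 and 606 and 854 in MOLM13. RAJI was above all others, and the libraries of MOLM13, P493-6, THP1 and KOPN8 overlapped at the low end. LDHB was at 2114 and 2452 in MOLM13, 1994 and 2211 in RAJI, 2057 and 1936 in P493-6, 1372 and 1441 in RS4-11, 1327 and 1442 in JURKAT, 1142 and 1012 in K562, 1048 and 919 in THP1 and 831 and 907 in KOPN8. RAJI overlapped with MOLM13 and with P493-6 at the top for LDHB. LDHB made up 77.7% and 74.2% of LDH counts in MOLM13 and 72.5% and 72.1% in P493-6. In the other 6 lines its share was 44.8% to 57.6%. These shares are not corrected for length, and the exons cover 1586 bases for LDHB against 2969 for LDHA. Count shares therefore understate LDHB. Scaled by exon length, the medians over lines were 879.8 CPM per kilobase for LDHB and 329 for LDHA. The promoter printed above for LDHA holds 5 core matches and that for LDHB holds 0, and nothing about a factor's binding follows from either.

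Glucose enters and lactate leaves the cell through transporters. SLC2A1 (GLUT1), the common glucose transporter, was at 219 and 234 in THP1, 206 and 247 in K562, 204 and 150.2 in RAJI, 117 and 124 in P493-6, 88.7 and 78.8 in JURKAT, 74.4 and 84.9 in KOPN8, 50.7 and 60.2 in MOLM13 and 44.1 and 50.1 in RS4-11. THP1 and K562 overlapped at the top and MOLM13 and RS4-11 stood close together at the bottom. SLC2A3 (GLUT3), a transporter of high affinity, was at 278 and 213 CPM in MOLM13, 123 and 133 in K562, 51.6 and 46.5 in KOPN8 and 48.0 and 48.1 in RS4-11. It was at 23.9 and 12.6 CPM in RAJI, 18.7 and 17.8 in P493-6, 12.8 and 12.6 in JURKAT and 7.92 and 8.34 in THP1. SLC2A14 is a near copy of SLC2A3 and could share its reads. The monocytic lines with the same MLL-AF9 fusion were at opposite ends: SLC2A3 made up 84.6% and 77.9% of the 2 transporters' counts in MOLM13 and 3.49% and 3.44% in THP1.

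SLC16A3 (MCT4), which exports lactate and is a HIF target, had the widest range of any member with at least 4 counts in each library. Its level was 237 and 233 CPM in THP1, 178 and 187 in MOLM13, 49.2 and 57.7 in KOPN8, 27.1 and 20.2 in JURKAT, 10.8 and 11.0 in P493-6 and 2.99 and 4.50 in RS4-11. K562 was at 0.994 and 0.532 CPM and RAJI at 0.638 and 0.417 CPM, on 8 to 23 counts per library, and the libraries of K562 and RAJI overlapped. The line means of THP1 and RAJI were 446-fold apart. SLC16A1 (MCT1), the other lactate transporter, varied by only 2.59-fold, with 347 and 349 in P493-6, 340.5 and 314 in K562, 267 and 297 in RAJI, 212 and 218 in RS4-11, 151 and 171 in THP1, 153 and 169 in JURKAT, 132 and 141 in KOPN8 and 143 and 126 in MOLM13. SLC16A3 therefore made up 55.5% to 61.2% of the counts of the pair in MOLM13 and THP1 and 0.140% to 29.1% in the other lines.

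**Figure D2:**
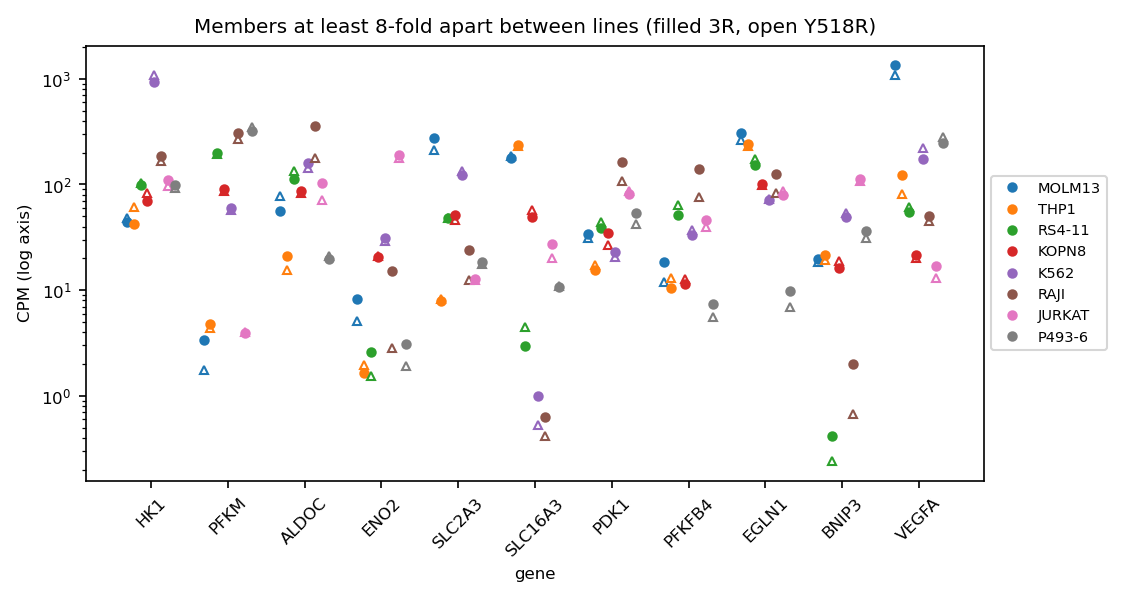
Levels (CPM, log axis) of the 11 members at least 8-fold apart between lines, with 1 point per library, coloured by line, filled for 3R and open for Y518R. The 2 libraries of a line lie far closer together than the lines do for most of these genes, with PFKM split into 2 sets of lines and the RAJI points of ENO2, BNIP3 and ALDOC spread most.

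The regulatory kinases were highest in RAJI. PDK1, which inhibits pyruvate dehydrogenase, was at 162 and 108 in RAJI, 81.9 and 86.3 in JURKAT, 53.6 and 42.4 in P493-6, 38.8 and 44.6 in RS4-11, 33.9 and 31.5 in MOLM13, 34.7 and 27.0 in KOPN8, 23.2 and 20.4 in K562 and 15.4 and 17.3 in THP1. RAJI did not overlap with JURKAT, nor JURKAT with the lines under it. PFKFB3 and PFKFB4 make the activator of phosphofructokinase. PFKFB3 was at 134 and 108 in RAJI, 112 and 112 in RS4-11, 99.5 and 87.4 in JURKAT, 82.5 and 86.7 in KOPN8, 61.4 and 60.8 in MOLM13, 50.8 and 51.7 in P493-6, 35.6 and 35.8 in K562 and 29.1 and 32.3 in THP1, with RAJI overlapping RS4-11 at the top. PFKFB4 was at 141 and 76.1 in RAJI, 51.5 and 63.3 in RS4-11, 46.0 and 39.2 in JURKAT, 33.4 and 37.1 in K562, 18.6 and 11.8 in MOLM13, 11.3 and 12.7 in KOPN8, 10.5 and 13.0 in THP1 and 7.38 and 5.64 in P493-6, and only RAJI stood above all libraries of other lines. PFKFB4 was 51.3% and 41.4% of PFKFB3 and PFKFB4 counts in RAJI and 48.4% and 50.9% in K562, against 12.7% and 9.82% in P493-6.

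Of the oxygen-sensing genes, HIF1A was at 292 and 285 in RAJI, 226 and 232 in RS4-11, 197 and 190.1 in KOPN8, 125 and 113 in P493-6, 109 and 124 in THP1, 113 and 113 in JURKAT, 101 and 68.0 in MOLM13 and 57.0 and 55.6 in K562. RAJI was highest and K562 lowest, P493-6 and JURKAT each overlapped with THP1, and both MOLM13 libraries lay below those 3 lines. EGLN1 (PHD2), the main HIF prolyl hydroxylase, was at 309 and 266 CPM in MOLM13, 240.1 and 232 in THP1 and 154 and 175 in RS4-11. It was at 125 and 83.7 CPM in RAJI, 102 and 99.5 in KOPN8, 79.3 and 85.9 in JURKAT and 70.9 and 73.4 in K562, and at only 9.90 and 6.92 CPM in P493-6. EGLN3 (PHD3), a hydroxylase that HIF induces, was highest where EGLN1 was lowest: 29.3 and 24.6 CPM in P493-6, 10.9 and 10.1 in K562 and 2.33 and 1.78 in JURKAT. KOPN8 held 15 and 36 EGLN3 counts, THP1 2 and 10, RS4-11 0 and 1, and MOLM13 and RAJI 0 in both libraries. P493-6 was thus the line with the least EGLN1 and the most EGLN3, and EGLN3 was 74.8% and 78.0% of their counts there, 13.4% and 12.1% in K562 and at most 2.85% in the other 6 lines.

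The other HIF targets did not share an order of lines. VEGFA, the angiogenic growth factor, was at 1341 and 1076 CPM in MOLM13, 246 and 279.6 in P493-6, 176 and 219.8 in K562 and 124 and 82.1 in THP1. The remaining lines had less VEGFA, 54.4 and 60.8 CPM for RS4-11, 50.6 and 45.4 in RAJI, 21.7 and 20.2 in KOPN8 and 16.8 and 13.0 in JURKAT, 81.1-fold below MOLM13 at the extreme. BNIP3, a mitophagy receptor, was highest in JURKAT (113 and 109 CPM), then in K562 (49.3 and 53.6) and P493-6 (36.6 and 31.4), with MOLM13, THP1 and KOPN8 overlapping at 16.3 to 21.6 CPM. BNIP3 was lowest in RAJI (2.02 and 0.678 CPM) and RS4-11 (0.417 and 0.243 CPM, on 18 and 8 counts). BNIP3L, its paralog, was at 164 and 161 in JURKAT, 188 and 105 in RAJI, 90.7 and 57.7 in MOLM13, 70.6 and 77.5 in KOPN8, 76.9 and 60.9 in P493-6, 50.2 and 62.6 in K562, 54.0 and 58.0 in RS4-11 and 35.6 and 42.5 in THP1. BNIP3L made up 98.9% to 99.6% of the counts of the pair in RS4-11 and RAJI and 50.4% to 82.0% elsewhere.

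NDRG1, a stress-response gene, was at 53.3 and 154 CPM in THP1, 60.0 and 56.1 in MOLM13, 43.6 and 37.4 in JURKAT, 30.2 and 32.6 in RS4-11 and 17.0 and 19.2 in KOPN8, and on 2 to 21 counts per library in K562, RAJI and P493-6. P4HA1, a collagen prolyl hydroxylase, was at 124 and 92.5 in RAJI, 94.9 and 102 in RS4-11, 77.1 and 69.9 in JURKAT, 63.5 and 63.9 in MOLM13, 57.6 and 55.5 in P493-6, 51.6 and 40.1 in K562, 35.9 and 43.3 in THP1 and 39.3 and 36.3 in KOPN8, only 2.86-fold from end to end. ADM, the peptide hormone adrenomedullin, was at 12.0 and 13.7 CPM in MOLM13 and 3.18 and 3.67 in JURKAT, and on 0 to 39 counts per library in the other lines. CA9, often used as a marker of hypoxia, had 0 to 4 counts in 15 libraries and 15 counts (0.747 CPM) in MOLM13 Y518R. ANKRD37 was between 0.665 and 5.32 CPM in all libraries.

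**Figure D3:**
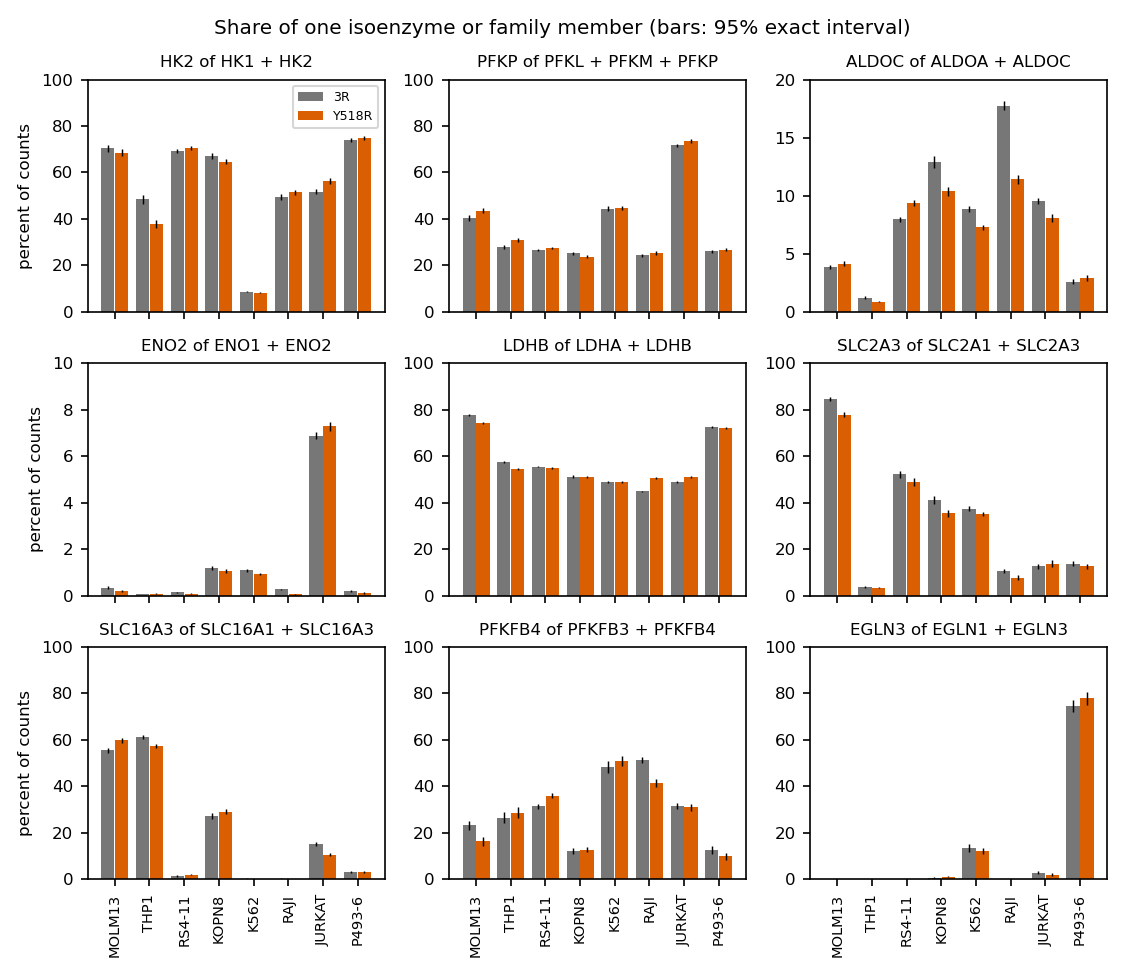
Share (percent of counts) of 1 named member within its family, per line, for 3R (grey) and Y518R (orange), with exact 95% counting intervals; the vertical axes of the ALDOC and ENO2 panels end at 20% and 10%. The panels of HK2, PFKP, SLC16A3 and EGLN3 show single lines apart from the rest (K562, JURKAT, the MLL-AF9 pair and P493-6).

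Each line was next compared with the mean of the 7 other lines by edgeR's quasi-likelihood test over 16586 genes, with the 2 libraries of a line as replicates. A member was called at a Benjamini-Hochberg adjusted p under 0.05 and a log2 difference of 1 or more, and 33 of 34 members were tested (CA9 was not). The 2 libraries come from the same line and were given different peptides, and they may not be independent cultures. These p-values therefore measure the spread between such libraries and speak only of these cultures of these lines. In RAJI, 11 of 33 members were higher (33.3%) and 5 lower (15.2%), where 13.7% of all genes were higher and 13.3% lower. The 7 enzymes among the higher ones had log2 differences of 3.32 ± 0.084 for PFKM, 2.08 ± 0.15 for ALDOC, 1.48 ± 0.086 for TPI1, 1.33 ± 0.093 for GAPDH, 1.55 ± 0.070 for PGAM1, 1.25 ± 0.078 for ENO1 and 1.30 ± 0.091 for LDHA (± SE). The 9 other enzymes were not called: HK1, HK2, GPI, PFKL, PFKP, ALDOA, PGK1, ENO2 and LDHB, of which ALDOA was at 0.41 ± 0.10, PFKP at 0.083 ± 0.13 and ENO2 at −0.21 ± 0.29. PFKFB4 (2.43 ± 0.15), PDK1 (1.94 ± 0.11), HIF1A (1.28 ± 0.092) and BNIP3L (1.06 ± 0.15) were also higher. The 5 lower members were NDRG1, SLC16A3, BNIP3, SLC2A3 and VEGFA. The median log2 difference of the 33 members was 0.81, against −0.092 for all genes. Without the RAJI 3R library the counts were 10 higher and 6 lower, and without the RAJI Y518R library 16 higher and 4 lower.

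THP1 had 4 members higher (12.1%) and 14 lower (42.4%), where 26.6% of all genes were higher and 10.4% lower. The lower members included HK2 (−2.03 ± 0.089), HK1 (−1.36 ± 0.12), PFKM (−3.53 ± 0.15), ALDOC (−2.34 ± 0.21), TPI1 (−1.01 ± 0.11), GAPDH (−1.02 ± 0.11), PDK1 (−1.54 ± 0.15) and PFKFB3 (−1.29 ± 0.10). SLC16A3 (4.73 ± 0.11), NDRG1, EGLN1 (1.498 ± 0.10) and SLC2A1 (1.19 ± 0.10) were higher. MOLM13, with the same fusion, had 6 higher (18.2%) and 3 lower (9.09%), where 22.5% and 10.7% of all genes were called. VEGFA (4.16 ± 0.10), SLC2A3 (3.12 ± 0.11), SLC16A3 (4.29 ± 0.11), NDRG1, ADM and EGLN1 were higher there, and PFKM (−4.50 ± 0.16), HK1 (−1.58 ± 0.13) and SLC2A1 (−1.17 ± 0.12) lower. SLC2A1 and SLC2A3 thus had opposite calls in these lines.

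K562 had 8 members higher (24.2%, all genes 19.7%) and 7 lower (21.2%, all genes 15.9%). HK1 (3.57 ± 0.084), BNIP3 (2.33 ± 0.14), SLC2A3 (2.12 ± 0.11) and ENO2 (1.94 ± 0.23) were among the higher and HIF1A (−1.41 ± 0.12), SLC16A3 (−4.73 ± 0.25) and PDK1 (−1.04 ± 0.14) among the lower. For JURKAT, 9 were higher (27.3%, all genes 19.0%) and 4 lower (12.1%, all genes 11.0%). There ENO2 (4.95 ± 0.19), BNIP3 (3.61 ± 0.13), BNIP3L (1.28 ± 0.15) and PDK1 (1.21 ± 0.11) were among the higher. PFKM (−3.72 ± 0.15), VEGFA (−2.996 ± 0.16), SLC2A3 (−1.67 ± 0.16) and PFKL (−1.06 ± 0.13) were lower. For P493-6, 7 were higher (21.2%, all genes 19.8%) and 8 lower (24.2%, all genes 10.5%). PFKM (3.59 ± 0.082), VEGFA (1.72 ± 0.11) and HK2 (1.27 ± 0.067) were among its higher members, and EGLN1 (−3.97 ± 0.16), ALDOC (−2.12 ± 0.21) and PGAM1 (−1.16 ± 0.089) among its lower. RS4-11 and KOPN8 both had B cell markers. In RS4-11, 3 were higher (9.09%, all genes 18.9%) and 4 lower (12.1%, all genes 7.43%). In KOPN8, 6 were higher (18.2%, all genes 15.1%) and 3 lower (9.09%, all genes 9.36%). The shares in MOLM13, K562 and KOPN8 were near those of all genes, so these counts say nothing particular about the members. Without its own 3R library, RS4-11 had 6 higher, and MOLM13 likewise had 5 lower. In RS4-11 the largest were PFKM (2.71 ± 0.086) and BNIP3 (−5.92 ± 0.28). In KOPN8 they were ADM, which had 1 and 0 counts there, VEGFA (−2.42 ± 0.16) and SLC16A3 (2.36 ± 0.13). Fitted differences for ADM, EGLN3 and NDRG1 rest on few or no counts in some lines, depend on the prior count, and are not given as sizes.

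Classes of lines were then compared on the summed counts of each line, to ask whether the fusion or the lineage orders these genes. With MLL-fusion lines against the 4 other lines (n = 4 and 4), 0 of 33 tested members were called by edgeR, where 0.0575% of 13909 genes were higher and 0.00719% lower. At an unadjusted p under 0.05 there were 4 members: HK1 (−2.35 ± 0.83), SLC16A1 (−0.80 ± 0.30), PFKL (0.995 ± 0.41) and SLC16A3 (3.67 ± 1.53), and the lowest adjusted p by edgeR was 0.411. Of the 33, 9 were above 0, with a median of −0.36 against −0.013 for all genes. With the 5 lymphoid lines against MOLM13, THP1 and K562 (lineages from general knowledge of the lines), 0 of 33 were called, where 0.0674% of 14826 genes were higher and 0.128% lower. The 6 members at an unadjusted p under 0.05 were PFKFB3 (1.17 ± 0.37), HK2 (1.32 ± 0.42), HIF1A (1.18 ± 0.40) and PDK1 (1.56 ± 0.55), higher in lymphoid lines, and VEGFA (−2.60 ± 1.08) and SLC2A3 (−2.08 ± 0.89), lower. The lowest adjusted p by edgeR was 0.257, and 24 of 33 were above 0, with a median of 0.39 against 0.0045. DESeq2 and limma-voom also called 0 members in both comparisons.

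Isoenzyme shares were compared in the same classes and between peptides by exact 2-sided permutation tests, for 11 shares and 33 tests in all. None passed an adjusted p of 0.05, and the lowest adjusted p was 0.629. The smallest p the designs allow is 0.0286 for 4 against 4 lines, 0.0357 for 5 against 3 as a 2-sided test and 0.00781 for 8 pairs. With 33 tests adjusted together, a share at that smallest p could pass only alongside many others as low. The class tests above all could hardly pass, so their outcome says little about whether shares differ. SLC16A3 was 36.7% ± 27.4 (SD, n = 4) of lactate transporter counts in MLL-fusion lines and 4.08% ± 6.00 (SD, n = 4) in the others (exact p = 0.0857, adjusted 0.629). SLC2A3 was 29.3% ± 25.3 (SD, n = 8) of glucose transporter counts with Y518R and 31.9% ± 27.4 (SD, n = 8) with 3R, lower in 7 of 8 lines (exact p = 0.0234, adjusted 0.629). PFKP's share of phosphofructokinase counts was 36.9% ± 16.8 with Y518R and 35.8% ± 16.3 with 3R (SD, n = 8), higher in 7 of 8 lines (exact p = 0.0781, adjusted 0.629).

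The effect of the DPY30-binding peptide on these genes was asked with the cell line as block, over 13043 genes. Of the 34 members 32 passed the filter on low counts; ADM and CA9 did not. In the comparison over 8 lines 0 of 32 members were called by edgeR, and 0% of all genes were. Of the 32, 15 were above 0, with a median log2 change of −0.0011 against −0.0037 for all genes. ENO2 had the lowest p, at −0.48 ± 0.20 (adjusted p = 0.999 by edgeR), and was the only member under an unadjusted 0.05, where 3.02% of all genes were. It was lower with Y518R in 6 of 8 lines, but without RAJI its change was −0.25. SLC2A3 (−0.16 ± 0.094) and PDK1 (−0.14 ± 0.086) followed among the negative values, and PFKP (0.14 ± 0.089), NDRG1 (0.29 ± 0.19) and HK1 (0.092 ± 0.073) among the positive. PFKP was at 0.044 without MOLM13.

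Within the classes the members' medians had opposite signs. The comparisons share libraries and are not independent. In the 4 MLL-fusion lines 0 of 32 members were called (0% of all genes), 23 were above 0 and the median was 0.061, against −0.00041 for all genes. In the 4 other lines 0 of 32 were called (0% of all genes), 6 were above 0 and the median was −0.082, against −0.0049. The test of the difference between the classes called 0 of 32 (0% of all genes). The difference, MLL-fusion minus other, was above 0 for 28 of 32, with a median of 0.20 against 0.0098 for all genes, of which 52.2% were above 0. At an unadjusted p under 0.05 there were 3 members in MLL-fusion lines (5.84% of all genes), 4 in the others (1.55%) and 7 for the difference (3.79%). DESeq2 and limma-voom called 0 members in all 4 comparisons. Without RAJI the median of the other lines was −0.049 with 9 of 32 above 0, and that of the difference was 0.11 with 23 of 32. Without K562 the other lines' median was −0.14 with 3 of 32 above 0.

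The genes at the head of these comparisons were of several roles. In MLL-fusion lines HK1 was at 0.24 ± 0.092 (adjusted p = 0.84 by edgeR). Its log2 ratios there were 0.55 for THP1, 0.26 for KOPN8, 0.11 for MOLM13 and 0.055 for RS4-11. PFKP was at 0.30 ± 0.12 there, and 0.11 without MOLM13. EGLN3's 1.31 ± 0.48 rested on 15 and 36 counts in KOPN8, 2 and 10 in THP1 and at most 1 elsewhere. VEGFA (−0.22 ± 0.12), PFKM (−0.17 ± 0.11) and HIF1A (−0.10 ± 0.10) led the negative values, and HIF1A was at 0.057 without MOLM13. In the other lines P4HA1 was at −0.25 ± 0.090 (adjusted p = 0.9996 by edgeR), with −0.36 in K562, −0.42 in RAJI, −0.14 in JURKAT and −0.052 in P493-6, all below 0. ALDOC (−0.41 ± 0.16), ENO2 (−0.66 ± 0.28) and PDK1 (−0.26 ± 0.12) were the other members under an unadjusted 0.05. Without RAJI, ALDOC was at −0.21 and ENO2 at −0.23.

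The highest values there were small: SLC16A1 0.047 ± 0.078, HK2 0.029 ± 0.069 and GAPDH 0.017 ± 0.11, the last at −0.071 without K562. For the difference between classes SLC16A3 was at 0.47 ± 0.18, P4HA1 at 0.31 ± 0.13, HK1 at 0.30 ± 0.13, LDHA at 0.28 ± 0.12, PGK1 at 0.25 ± 0.11 and ALDOC at 0.47 ± 0.22, with EGLN3 on few counts, all at an adjusted p of 0.999 by edgeR. The only members under 0 for it were PFKM (−0.13 ± 0.15), VEGFA (−0.24 ± 0.17), SLC16A1 (−0.013 ± 0.11) and HIF1A (−0.045 ± 0.14), the last at 0.10 without MOLM13.

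**Figure D4:**
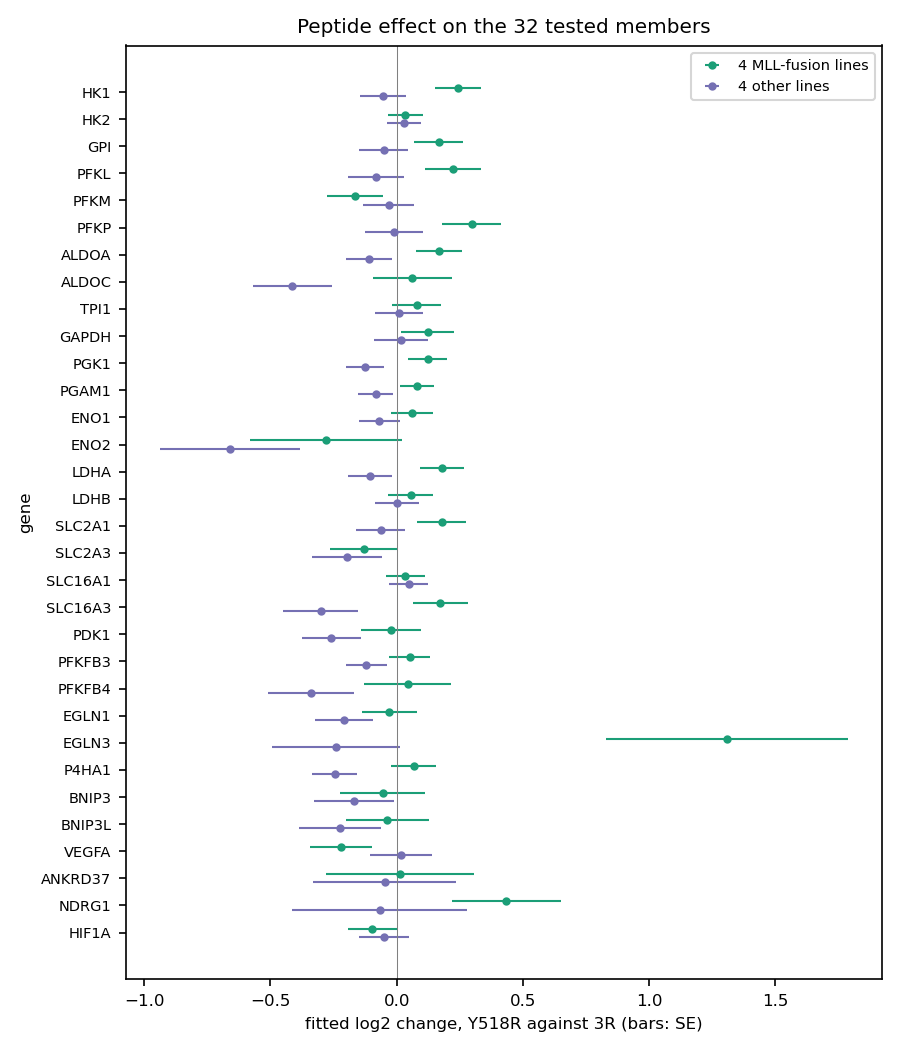
Fitted log2 change with Y518R against 3R for the 32 tested members (rows) in the 4 MLL-fusion lines (green) and the 4 other lines (violet); bars are standard errors. Green points lie right of violet ones in 28 of 32 rows, and no change passed the adjusted threshold in either class.

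Single lines had 1 library per peptide, so their ratios carry no replicate check and no p. Intervals given with ratios cover counting error only. In the RAJI pair, of 27 members at 10 CPM or more in either library, 24 had a lower level with Y518R, and the median log2 ratio was −0.18 against 0.0017 for all genes. ENO2 had 284 counts with 3R and 55 with Y518R, a log2 ratio of −2.37 (counting interval −2.84 to −1.97). ALDOC had 6753 counts with 3R and 3416 with Y518R, a ratio of −1.01 (counting interval −1.07 to −0.95). PFKFB4 had 2657 counts with 3R and 1459 with Y518R, a ratio of −0.89 (counting interval −0.98 to −0.80). For all 3, 3R was the higher library. A core stood in their promoters printed above, as in 86.2% of the members with a promoter, and a link to these ratios was not tested. SLC2A3 was at −0.92 on 450 counts with 3R and 241 with Y518R, and BNIP3L at −0.84. PDK1 (−0.58), EGLN1 (−0.57), SLC2A1 (−0.44) and P4HA1 (−0.42) followed, while GAPDH (−0.15) and ENO1 (−0.14) were nearer 0 and LDHB (0.15), SLC16A1 (0.15) and TPI1 (0.065) were above 0. Of all genes at that level in RAJI, 1.20% were at least 2-fold lower, as were 2 of the 27 members. The RAJI 3R library is the one with 44.7% of reads given to no gene, against 23.4% for RAJI Y518R, and the part of that difference in these ratios was not tested.

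JURKAT had 22 of 29 members lower with Y518R (median −0.14), with ALDOC at −0.51 and SLC16A3 at −0.43. P493-6 had 16 of 27 lower (median −0.055), and K562 had 17 of 29 higher (median 0.11), with VEGFA at 0.32 and P4HA1 at −0.36. Among MLL-fusion lines RS4-11 had 22 of 27 members higher (median 0.071) and KOPN8 22 of 30 (median 0.12). MOLM13 had 17 of 29 higher (median 0.068), with values far to both sides. PFKP (0.88, 2971 counts with 3R and 4825 with Y518R), PFKL (0.70), GPI (0.56), LDHA (0.49) and GAPDH (0.47) were higher, and BNIP3L (−0.65), PFKFB4 (−0.65), HIF1A (−0.56) and SLC2A3 (−0.39) lower. THP1 had 15 of 27 higher (median 0.035). NDRG1 there had 1657 counts with 3R and 4641 with Y518R (1.53), the only member at least 2-fold higher in any of the 8 pairs among those at 10 CPM or more, where 2.15% of all genes in the THP1 pair were. HK1 was at 0.55, VEGFA at −0.60 and ALDOC at −0.44.

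**Figure D5:**
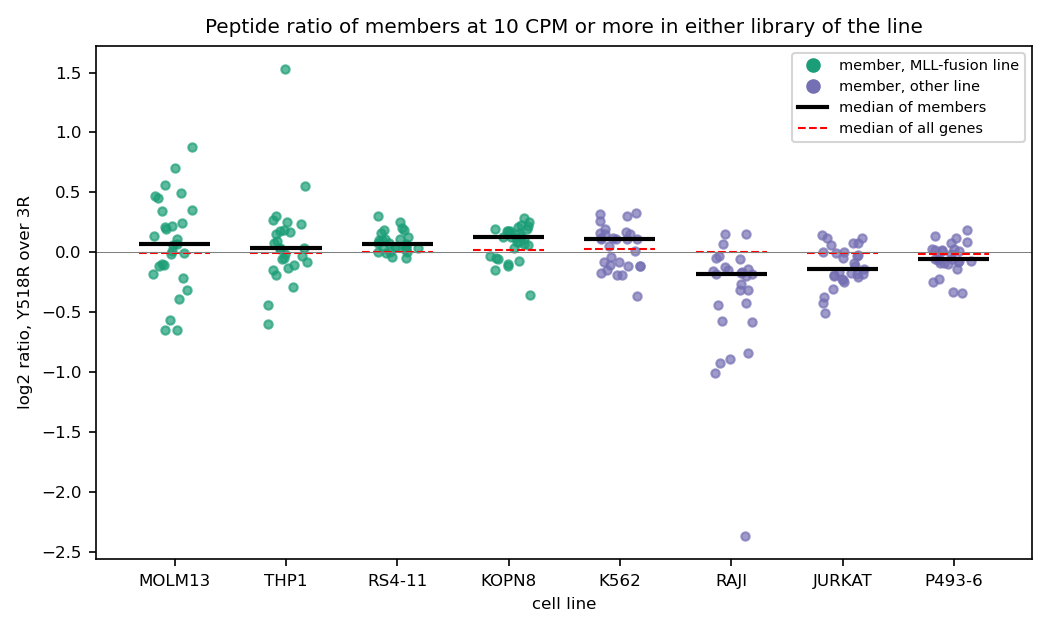
Log2 ratio of Y518R over 3R per line for members at 10 CPM or more in either library (points), with the median of the members (black) and of all genes at that level (red, dashed). RAJI and JURKAT lie mostly under 0, RS4-11 and KOPN8 mostly above, MOLM13 and THP1 are spread to both sides, and ENO2 is the single lowest point of RAJI.

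Another 95 genes of glycolysis, related sugar metabolism and the HIF pathway, from a wider list, had no call for the peptide by edgeR: 0 of 72 tested in each of the 4 comparisons. Their median was −0.042 over 8 lines, with 27 of 72 above 0, −0.0053 in MLL-fusion lines (35 of 72), −0.059 in the other lines (21 of 72) and 0.052 for the difference (45 of 72). Between the classes of lines 0 of 74 and 0 of 76 tested were called. PKM, the pyruvate kinase of the last step of glycolysis, was listed under its older symbol PKM2 and was at 3073 and 2949 CPM in RAJI and 523 and 542 CPM in K562, its highest and lowest lines. Its peptide change was 0.14 ± 0.090 in MLL-fusion and −0.050 ± 0.090 in other lines. PKLR, the pyruvate kinase of red cells and liver, had 4073 and 6850 counts in K562 and at most 8 in any other library. EPAS1 (HIF2A), the alternative HIF subunit, was at 58.4 and 49.6 CPM in THP1 and 31.4 and 29.9 in MOLM13, 2.34 to 9.51 CPM in RS4-11, KOPN8, K562 and JURKAT, and on 0 counts in both RAJI libraries and 0 and 1 in P493-6. ARNT was highest in THP1 (165 and 164 CPM) and lowest in RAJI (34.7 and 32.7 CPM), the line with the most HIF1A. VHL varied from 131 to 234 CPM and HIF1AN, which blocks HIF's activation domain, from 42.6 to 138 CPM over the libraries.

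Between lines, 90 genes of this list were tested. There were 28 higher (31.1%, all genes 26.6%) and 15 lower (16.7%, all genes 10.4%) in THP1, and 20 higher (22.2%, all genes 13.7%) and 12 lower (13.3%, all genes 13.3%) in RAJI. For K562 the counts were 22 higher (24.4%, all genes 19.7%) and 19 lower (21.1%, all genes 15.9%), and for P493-6 they were 21 higher (23.3%, all genes 19.8%) and 11 lower (12.2%, all genes 10.5%). There were 18 higher (20%, all genes 22.5%) and 10 lower (11.1%, all genes 10.7%) in MOLM13, and 17 higher (18.9%, all genes 15.1%) and 12 lower (13.3%, all genes 9.36%) in KOPN8. The last 2 lines had 19 higher (21.1%, all genes 18.9%) and 8 lower (8.89%, all genes 7.43%) in RS4-11, and 17 higher (18.9%, all genes 19.0%) and 7 lower (7.78%, all genes 11.0%) in JURKAT. These shares were mostly near those of all genes, so the counts say nothing particular about the list. Among the 3 of lowest p in each line was CITED2, a rival of HIF1A for its coactivator, which was higher in MOLM13 (3.75 ± 0.076) and THP1 (3.43 ± 0.077) and lower in KOPN8 (−1.92 ± 0.12), JURKAT (−2.57 ± 0.12) and P493-6 (−2.50 ± 0.12). SLC2A5, the fructose transporter, was higher in RAJI, THP1 and RS4-11, on 2540 to 7233 counts per library against at most 508 elsewhere, and EPAS1 was higher in MOLM13 and THP1. The glycogen enzymes PGM1 (RAJI 3.11 ± 0.10, RS4-11 2.05 ± 0.10) and GBE1 (RS4-11 2.83 ± 0.084) were higher, as was the mitochondrial HIF target FAM162A in RAJI (1.73 ± 0.084). CXCR4, the chemokine receptor, was higher in KOPN8 (3.08 ± 0.10) and JURKAT (2.88 ± 0.10). The remaining genes so named were TFRC, the transferrin receptor, lower in MOLM13 (−2.13 ± 0.10), RORA, higher in JURKAT (5.99 ± 0.24), FAM13A and KISS1R, higher in P493-6, KLF3 and PKLR, higher in K562, KLF3, lower in KOPN8 on 0 and 3 counts, and CXCR4, lower in K562 on 6 and 16 counts.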

How the data were processed

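Each of 8 cell lines gave 1 mRNA library per peptide. The deposited files hold whole-number counts per gene symbol, and 5 entries that name no gene were left out of totals and tests. Per the submitters' processing notes the tools included TopHat2 2.1.1 and HTSeq 0.6.1, beside CASAVA 1.8.4, DESeq and DESeq2 3.0, and the builds hg19 and GRCh38, without roles. The strand setting, which bears on overlapping and antisense genes, was not given in the sources used. Counts were TMM-scaled and tested with edgeR 4.0.16 in R 4.3.3 (quasi-likelihood, genes kept by filterByExpr at a minimum count of 10, Benjamini-Hochberg adjustment over all genes tested), after the test scripts were tested on simulated data. The SE of a log2 change is its size divided by the root of F. Peptide comparisons had the cell line as block: the 2 libraries of a line deviated together from the means (correlation 0.962 to 0.991 within a line, at most 0.452 between lines, over 10091 genes). The 2 libraries of a line were given different peptides, and nothing says whether they began as separate cultures. For single lines p measures the spread between such libraries. In peptide comparisons p measures how the peptide change varies between lines, and in class comparisons the spread between lines. Log2 ratios of single pairs used a prior count of 2, and intervals of shares and ratios are exact at 95%. Isoenzyme shares were tested by exact permutation.

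Alternatives were DESeq2 1.42.0, limma 3.58.1, other size factors, no filter, no block and leaving out each line or library. Members and lists were chosen with earlier results of these data known. The genes named are all members, with values by line for isoenzyme families, for members at least 8-fold apart between lines and for the 3 of lowest p in each direction of a peptide comparison, and of the wider list the 3 of lowest p among those called in a line plus PKM, EPAS1, ARNT, VHL and HIF1AN. Promoter windows were taken from RefSeq (GRCh38.p14) by symbol. The build of the counts has no stated role, so no coordinate was joined to them. Windows for SLC2A3, SLC16A1, VEGFA, BNIP3L and NDRG1 were not used here.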

Additional observations from a re-analysis of the deposited data

Results flagged for a closer look

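Groups of 4 or 8 lines were searched for a line whose gap to its nearest neighbour took up most of the group's range (Dixon's test at 95%), for 28 members with at least 10 counts in each library. Of 112 groups, 10 had such a line, where chance gives about 1 in 20. In levels, HK1 in K562 was at 9.98 on the log2 CPM scale, with the other lines between 5.52 and 7.46. EGLN1 in P493-6 was at 3.07, with the others between 6.17 and 8.17.

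In the log2 ratio of Y518R over 3R, ENO2 in RAJI was at −2.37, with the other 7 lines between −0.73 and 0.25, and the RAJI 3R library is the one with 44.7% of reads given to no gene. The MOLM13 pair gave the other 7 cases. Among 8 lines PFKP was at 0.88 (others −0.16 to 0.24), LDHA at 0.49 (−0.19 to 0.13), HIF1A at −0.56 (−0.14 to 0.18) and PFKM at −0.93 (−0.18 to 0.12). PFKM, at 77 and 35 counts in that pair, also stood apart among the 4 MLL-fusion lines at −0.93 (others −0.14 to −0.04), as did PFKFB4 at −0.65 (0.16 to 0.30) and BNIP3L at −0.65 (0.10 to 0.26). Each pair is 1 library per peptide, and the cause was not tested.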

How the results depend on the processing

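Of 831 values recomputed for 69 results, 816 were labelled unchanged. For the change of a gene this meant the same sign and side of the threshold. The lowest adjusted p of a member by edgeR was 0.257 in class and 0.840 in peptide comparisons, so that side could hardly change. A count had to stay within a set fold of the main one. A median had to move by less than 0.116, the SD over lines of the members' median ratio. A median could thus change sign and still be labelled unchanged: that over 8 lines, −0.0011, reached 0.021 on leaving out 1 line. Share tests had little room to pass under any setting. The total of 816 therefore says little about how firm the values are. No peptide or class comparison called a member under any alternative. The cause of the exceptions was not tested beyond what each setting leaves out. Without the replicate block, which pairs the 2 libraries of a line, GAPDH in the 4 other lines was at −0.036 and the difference of HIF1A between classes at 0.0021. The members' medians without the block were −0.027 over 8 lines, 0.081 in MLL-fusion lines, −0.080 in the other lines and 0.20 for the difference. Leaving out 1 line gave −0.071 (without K562) to 0.070 (without RAJI) for GAPDH in the other lines, −0.19 (without THP1) to 0.057 (without MOLM13) for HIF1A in MLL-fusion lines, and −0.14 (without THP1) to 0.10 (without MOLM13) for HIF1A's difference. Members above 0 in the other lines then numbered 3 (without K562) to 9 (without RAJI). Leaving out 1 library of the line itself gave 3 to 5 members lower in MOLM13 and 4 to 6 higher in RS4-11, the larger counts without its 3R library. With a log2 difference of at least 0.5 in place of 1, counts were 11 higher and 7 lower in MOLM13, 11 higher in RS4-11, 9 lower in KOPN8, 21 higher in RAJI, 14 higher in JURKAT and 14 lower in P493-6. Leaving out RAJI and THP1 together, or the RAJI 3R library in comparisons of the other lines, was chosen after seeing the data. Depth limits ADM, CA9, EGLN3 and NDRG1, which had under 4 counts in some library.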
